A study of Caenorhabditis elegans with 2 samples.

Results

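Transcript levels of 10 genes of the methionine and methyl-group cycle were read from an RNA sequencing study of Caenorhabditis elegans. The genes were chosen by name, among 21163 gene rows: the S-adenosylmethionine synthase genes sams-1, sams-3, sams-4 and sams-5, the adenosylhomocysteinase gene ahcy-1, the methionine synthase group metr-1, mtrr-1 and mthf-1, and the transsulfuration genes cbs-1 and cth-2. Both groups were N2 worms, the standard wild-type strain, sampled as whole animals at day 5. Control worms were given vehicle, and the other group 100 µM ellagic acid (EA), a plant polyphenol that was dissolved in dimethyl sulfoxide and mixed into the Escherichia coli OP50 food. The labels do not say from which point the days were counted or how many animals went into a library. Each group had 1 library, of 41840364 counts for control and 39421614 counts for EA. The spread between cultures is therefore unknown, no test was made, and all 95% intervals below cover counting error only.

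The cycle turns methionine into S-adenosylmethionine (SAM), the methyl donor of most methyltransferases. Once its methyl group is spent, SAM becomes S-adenosylhomocysteine, which adenosylhomocysteinase splits into adenosine and homocysteine. Homocysteine is either methylated back to methionine, by a vitamin B12 dependent enzyme that takes the methyl group from folate, or drained through cystathionine to cysteine. In C. elegans loss of sams-1 is known to lower phosphatidylcholine, to raise lipid synthesis through the transcription factor SBP-1 and to lengthen life. The study's title names longevity and healthspan under EA, and the comparison here is of EA with vehicle.

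The genes of the cycle did not all differ in 1 direction. With EA, sams-1 and cbs-1 were lower, at log2 ratios of -0.55 and -0.40, while sams-5, cth-2 and ahcy-1 were higher, at 0.76, 0.36 and 0.31. Whole animals mix tissues, and fewer cells of a type cannot be told apart from less RNA per cell. All 10 genes reached the minimum used here, a mean of 5 CPM (counts scaled to a library of fixed size). No member differed by 2-fold, against 2.00% of the 10610 genes at that minimum, 0.481% higher and 1.52% lower. A smaller limit was a log2 ratio of 0.32 or more in size with an interval that excluded 0, chosen with earlier results of these data known. By it 2 members were higher (sams-5 and cth-2) and 2 were lower (sams-1 and cbs-1). Of all tested genes 9.83% were higher and 15.6% lower by that rule. With 10 members, 4 beyond the limit against 25.5% of all genes is a small difference in number. Of these 4, sams-5 had 4.74 CPM in control and 8.04 with EA, so it reached the minimum only through the EA library. The member just beyond the limit was cth-2, 1.28-fold higher, and the member just short of it was ahcy-1, 1.24-fold higher. A minimum of 50 CPM was chosen after seeing the data. Among the 8 members at that mean or more, cth-2 was higher and sams-1 lower by the same limit. Of the 4338 genes at that minimum 6.06% were higher and 7.77% lower (13.8% in either direction).

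Fold limits also chosen after seeing the data placed the members differently. At 1.1-fold 6 members were higher (sams-3, sams-4, sams-5, ahcy-1, mtrr-1 and cth-2) and 2 lower, against 27.4% and 28.2% of all tested genes, or 55.5% in either direction. At 1.5-fold sams-5 was higher and no member was lower, against 2.32% and 6.63%, or 8.94% in either direction.

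**Figure D1:**
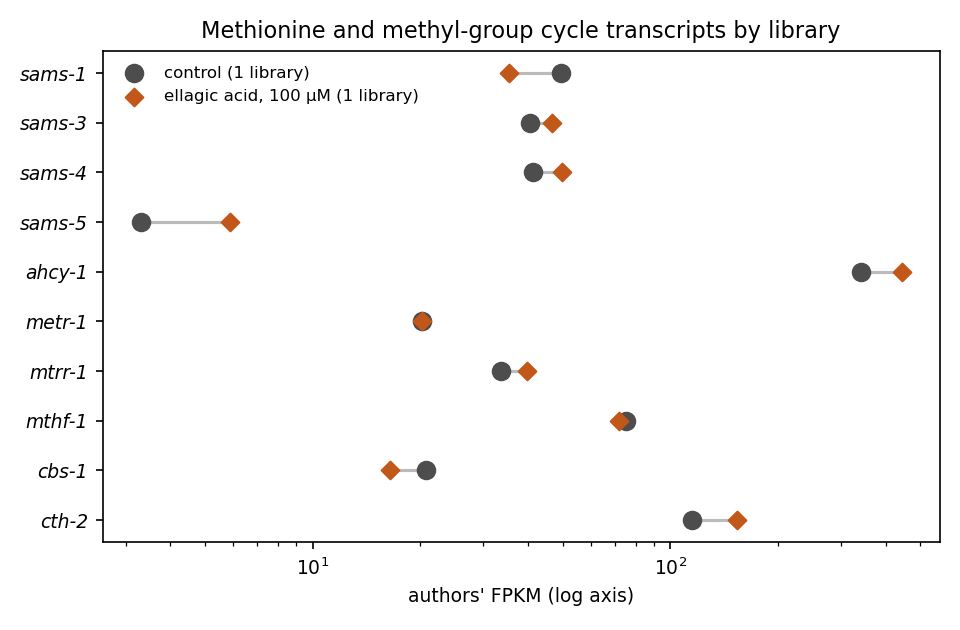
Level of each of the 10 genes in the control library (circles) and the EA library (diamonds), as the authors' FPKM on a log axis. Rows run from sams-1 at the top to cth-2 at the bottom. The lowest level is that of sams-5, at 3.30 and 5.89 FPKM, and the highest that of ahcy-1, at 342 and 444 FPKM. The points of metr-1 lie on each other.

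The levels of the genes spanned a wide range. In FPKM, the authors' value scaled to transcript length and library size, ahcy-1 was highest at 342 in control and 444 with EA, ranks 270 and 205 among all gene rows. It was followed by cth-2 at 114.7 and 153.7 FPKM and mthf-1 at 74.97 and 71.9 FPKM. The other genes lay between 16.5 and 49.9 FPKM in both libraries, apart from sams-5 at 3.30 and 5.89 FPKM. Over the 10 genes the median log2 ratio of EA to control was 0.16, with 6 genes above 0 and 4 below. Over all 10610 tested genes it was 0.01, with 5448 above and 5162 below. The central 95% of those genes lay between -0.85 and 0.57, and sams-5 alone among the members fell outside that range.

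**Figure D2:**
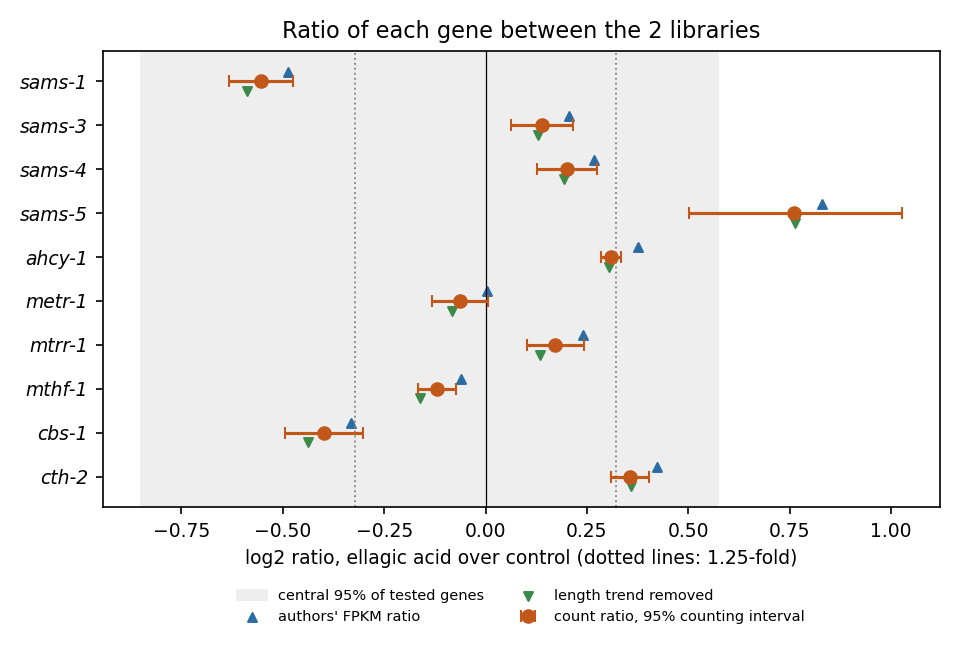
Log2 ratio of EA to control for each gene, from counts with the 95% counting interval (circles), from the authors' FPKM (upward triangles) and with a trend on transcript length removed (downward triangles). The grey band is the central 95% of tested genes, -0.85 to 0.57. Intervals of 6 genes lie above 0, those of sams-1, mthf-1 and cbs-1 lie below, and that of metr-1 includes 0. Of all 10610 tested genes, 35.2% had intervals above 0 and 33.1% below, 68.3% in either direction.

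The SAM synthases, which join methionine to adenosine from ATP, are encoded by 4 genes, and sams-1 differed in the opposite direction from the others. The gene sams-1 lies on chromosome X, 11965962 to 11969893 on the plus strand of build WBcel235, and has 3 annotated transcripts. Control gave 3358 counts and EA 2208, which is 81.2 and 55.3 CPM. The EA library was the low one, 1.47-fold lower (95% counting interval 1.39 to 1.55). Of all tested genes 7.29% had a lower log2 ratio than sams-1.

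The other SAM synthase genes were higher with EA. sams-3 (chromosome IV, 5848657 to 5850843, plus strand) had 2679 and 2847 counts, 64.8 and 71.3 CPM, and its log2 ratio was 0.14 (0.06 to 0.22). sams-4 (chromosome IV, 5844061 to 5846369, minus strand) had 2786 and 3093 counts, 67.4 and 77.5 CPM, and its log2 ratio was 0.20 (0.13 to 0.28). These neighbours are transcribed away from each other across 2287 bases that hold no annotated protein-coding gene. Their ratios did not differ beyond counting error: relative to sams-4, sams-3 differed by -0.06 on the log2 scale (-0.17 to 0.04).

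sams-5 (chromosome IV, 6277433 to 6279522, minus strand) was the scarcest member. It had 196 counts in control and 321 with EA, 4.74 and 8.04 CPM, a ratio of 1.69 (1.42 to 2.04), and 98.8% of tested genes had a lower log2 ratio. In the control library it lay just under the 5 CPM minimum and in the EA library above it. SAM synthase genes resemble each other, and how the authors assigned reads that match more than 1 of them is not given, so the split between the 4 genes is uncertain. The sum of sams-3, sams-4 and sams-5 does not depend on the split among those 3: it was 5661 counts in control and 6261 with EA, a ratio of 1.15 at a log2 ratio of 0.20 (0.14 to 0.25).

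The rank order of the SAM synthase genes within a library differed between control and EA. In control, sams-1 was the highest per length, at 49.5 FPKM against 41.4 for sams-4 and 40.5 for sams-3. With EA it was below both, at 35.3 FPKM against 49.9 and 46.7. sams-1 held 37.2% of the summed counts of the 4 genes in control (exact Clopper-Pearson 95% interval 36.2% to 38.2%) and 26.1% with EA (25.1% to 27.0%). A ratio of genes within a library does not depend on library scaling: sams-1 FPKM was 1.22 times that of sams-3 in control and 0.756 times with EA, and the ratio of their counts differed by -0.69 on the log2 scale (-0.80 to -0.58).

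Summed over all 4 genes, the SAM synthase transcripts were nearly level. They came to 9019 counts in control and 8469 with EA, 218 and 212 CPM, at -0.04 on the log2 scale (-0.08 to 0.003). The sign of this sum turns with FPKM, where the 4 genes add up to 135 in control and 138 with EA, a log2 ratio of 0.03.

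**Figure D3:**
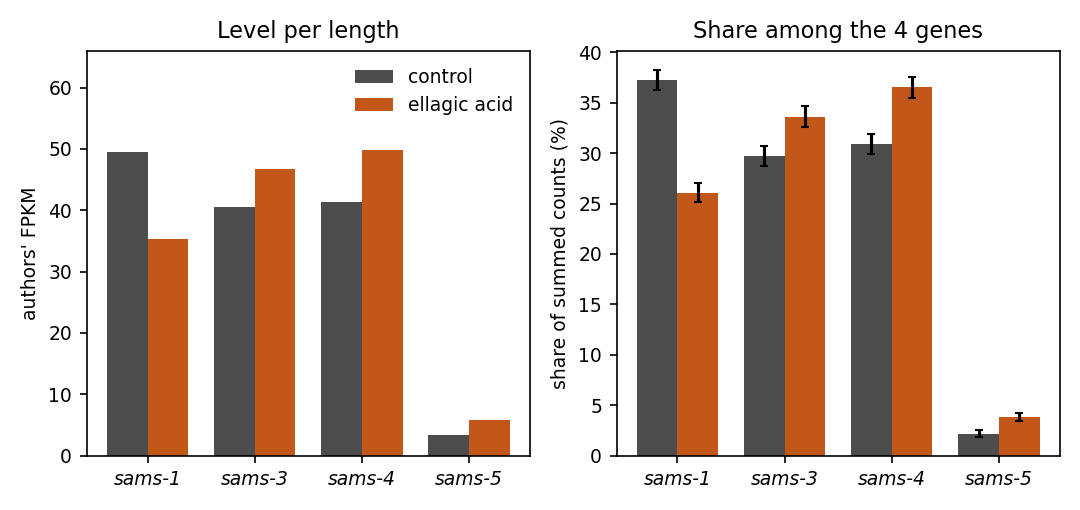
The 4 SAM synthase genes in each library, as authors' FPKM (left) and as the share of their summed counts with exact binomial 95% intervals (right). sams-1 is the tallest bar in control, at 49.5 FPKM and 37.2%, and stands below sams-3 and sams-4 with EA, at 35.3 FPKM and 26.1%.

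A known layer of control on these genes is the RNA methyltransferase METT-10, which in C. elegans methylates transcripts of sams-3, sams-4 and sams-5 at a splice site and lowers their productive splicing. The gene mett-10 had 1191 counts in control and 1436 with EA, 28.81 and 35.99 CPM. Its log2 ratio of 0.32 (0.21 to 0.43) was just under the limit. From FPKM the log2 ratio of mett-10 was 0.43, beyond the limit, so its place depends on the scaling. Gene-level counts do not separate the spliced forms of the sams genes, so their splicing, and the part of mett-10 in these values, was not tested.

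Adenosylhomocysteinase removes the product that inhibits methyltransferases. Its gene ahcy-1 (chromosome I, 6836469 to 6838140, plus strand) had 23296 counts in control and 27864 with EA, 564 and 698 CPM. The EA library was higher, at a ratio of 1.24 (1.22 to 1.26), and 89.4% of tested genes had a lower log2 ratio. Its interval is the narrowest of the 10 genes because its counts are the highest. It passed the limit of 0.32 with total counts as library sizes and with FPKM, and under no other alternative run at that limit. The ratio of ahcy-1 to sams-1 in FPKM was 6.91 in control and 12.6 with EA.

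In the regeneration of methionine all 3 genes stayed within the limit. The methionine synthase gene metr-1 (chromosome II, 10926561 to 10931078, plus strand) had 3533 and 3264 counts, 85.5 and 81.8 CPM, and its log2 ratio was -0.06 (-0.13 to 0.01), an interval that includes 0. Its FPKM was 20.2 in both libraries. mtrr-1, the reductase that restores the B12 cofactor of methionine synthase (chromosome II, 9285975 to 9289132, plus strand), had 3234 and 3518 counts, 78.2 and 88.2 CPM, and its log2 ratio was 0.17 (0.10 to 0.24).

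The gene mthf-1 encodes methylenetetrahydrofolate reductase, which makes the methyl-folate that methionine synthase uses (chromosome II, 7773904 to 7777823, minus strand). It had 7688 and 6830 counts, 186 and 171 CPM, and its log2 ratio was -0.12 (-0.17 to -0.07). In these 3 genes the EA library was thus the lower one for mthf-1 and the higher one for mtrr-1, by less than 0.32 on the log2 scale each. mthf-1 overlaps the gene C06A8.6 on the other strand by 11 bases, and whether counting used strand is not given. C06A8.6 had 176 and 326 counts, few beside those of mthf-1. Likewise sams-3 overlaps C06E7.4, with 320 and 268 counts, by 18 bases, and cth-2 overlaps ZK1127.3, with 2400 and 2321 counts, by 8 bases. The part of these overlaps in the members' counts was not tested.

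The transsulfuration pair differed in opposite directions: cbs-1 was lower and cth-2 higher with EA. Cystathionine beta-synthase, encoded by cbs-1 (chromosome X, 10054275 to 10057528, plus strand), commits homocysteine to cysteine synthesis. cbs-1 had 2100 counts in control and 1538 with EA, 50.8 and 38.5 CPM, 1.32-fold lower with EA (1.23 to 1.41). Cystathionine gamma-lyase carries out the next step and releases cysteine. Its gene cth-2 (chromosome II, 7056184 to 7057960, minus strand) had 6755 and 8346 counts, 163 and 209 CPM, 1.28-fold higher with EA (1.24 to 1.32). In FPKM cth-2 stood 5.53 times above cbs-1 in control and 9.34 times with EA. The count ratio of cbs-1 to cth-2 differed by -0.75 on the log2 scale (-0.86 to -0.65).

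The second copy of each transsulfuration gene was lower or level with EA. cth-1 had 1672 and 1316 counts, a log2 ratio of -0.29 (-0.40 to -0.19), opposite in sign to cth-2. cbs-2 had 424 and 383 counts, a log2 ratio of -0.10 (-0.30 to 0.11) with an interval that includes 0. Summed by step, cbs-1 and cbs-2 had 61.1 CPM in control and 48.1 CPM with EA, at -0.34 on the log2 scale (-0.43 to -0.26). cth-1 and cth-2 together had 204 and 242 CPM, at 0.25 on the log2 scale (0.21 to 0.29).

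Both members lower beyond the limit, sams-1 and cbs-1, are the only members on the X chromosome. The 8 autosomal members had a median log2 ratio of 0.19, and of these metr-1 and mthf-1, on chromosome II with the higher mtrr-1 and cth-2, were below 0. Among all tested genes the difference between chromosomes was smaller: the 1430 on X had a median of -0.04 (0.02 with FPKM), with 20.1% lower and 7.34% higher beyond it, and the 8994 on autosomes had a median of 0.01 (0.08 with FPKM), with 15.03% lower and 9.68% higher. Chromosome V, an autosome with none of the members, was about as low as X, with a median of -0.05 (0.02 with FPKM) and 22.2% lower. Against the median of their own chromosome, sams-1 stood at -0.51 and cbs-1 at -0.35. Within X, 9.37% of tested genes had a lower log2 ratio than sams-1 and 15.2% a lower one than cbs-1. Of the pathway list genes described next, the 13 on X had a median of -0.02 and the 82 on autosomes a median of 0.01. The part of the chromosome in the ratios of sams-1 and cbs-1 was not tested.

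Genes next to the cycle were taken from 8 lists of 108 names, of which 106 were in the table and 95 reached 5 CPM. Beyond the limit of 0.32, 5 of the 95 were higher and 6 lower with EA, and none reached 2-fold. Of the 5 higher genes, icmt-1 reached 5 CPM only through the EA library. Over all tested genes the shares were 9.83% higher and 15.6% lower, and the counts of single lists below, some of only 3 to 18 genes, stand beside the same shares. Their median log2 ratio was -0.01, or 0.06 with FPKM, beside 0.01 over all tested genes.

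Folate cycle genes supply the methyl group. Of 11 tested, 2 were higher beyond the limit and 0 lower, with a median of -0.02 (0.05 with FPKM). The higher ones were atic-1, an enzyme of purine synthesis that uses formyl-folate, at 83.8 and 117 CPM and a log2 value of EA over control of 0.48 (0.42 to 0.55), and the folate transporter gene folt-1 at 0.33 (0.13 to 0.53). folt-1 lay just past the limit. mel-32, which encodes serine hydroxymethyltransferase, had 0.19, and dao-3, a methylenetetrahydrofolate dehydrogenase gene, had 0.15. The formyl-folate dehydrogenase gene alh-3 had -0.28 and the glycine cleavage gene gcsh-2 had -0.21.

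Vitamin B12 serves methionine synthase and the breakdown of propionate. Of 16 genes of B12 handling and propionate metabolism, 1 was lower beyond the limit and 0 higher, with a median of -0.05 (0.01 with FPKM). The lower one was mce-1, the methylmalonyl-CoA epimerase gene, at 43.3 and 31.7 CPM and a log2 value of EA over control of -0.45 (-0.55 to -0.34). The mutase gene mmcm-1 had 0.05, the B12 processing gene cblc-1 -0.26, the B12 exporter gene mrp-5 0.24 and the propionate shunt gene ech-6 -0.12. nhr-114, a nuclear receptor gene that in C. elegans acts on the methionine cycle, had 601 and 603 counts, a log2 ratio of 0.06 (-0.11 to 0.22).

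Of 15 tested genes of transsulfuration, sulfide and glutathione metabolism, which include cbs-2 and cth-1, 2 were lower beyond the limit and 0 higher, beside 15.6% and 9.83% of all tested genes. Their median was -0.09, or -0.04 at a minimum of 1 CPM, which adds the higher genes mpst-4, mpst-5 and mpst-6. Of these, mpst-5 and mpst-6 had 0.58 and 0.90 CPM in control and passed only through the EA library, so that median depends on the filter. cdo-1, which encodes the cysteine dioxygenase that removes excess cysteine, had 1820 and 1000 counts, 44.0 and 25.1 CPM, and its log2 ratio was -0.81 (-0.93 to -0.70). cysl-2, a cyanoalanine synthase gene, had 1411 and 942 counts and -0.53 (-0.65 to -0.41), and its paralog cysl-3 had -0.26. In the authors' KEGG group of cysteine and methionine metabolism without the 10 members, 4 of 39 tested genes were lower beyond the limit and 0 higher, with a median of -0.10. That group shares cdo-1, cysl-2 and other genes with the list.

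**Figure D4:**
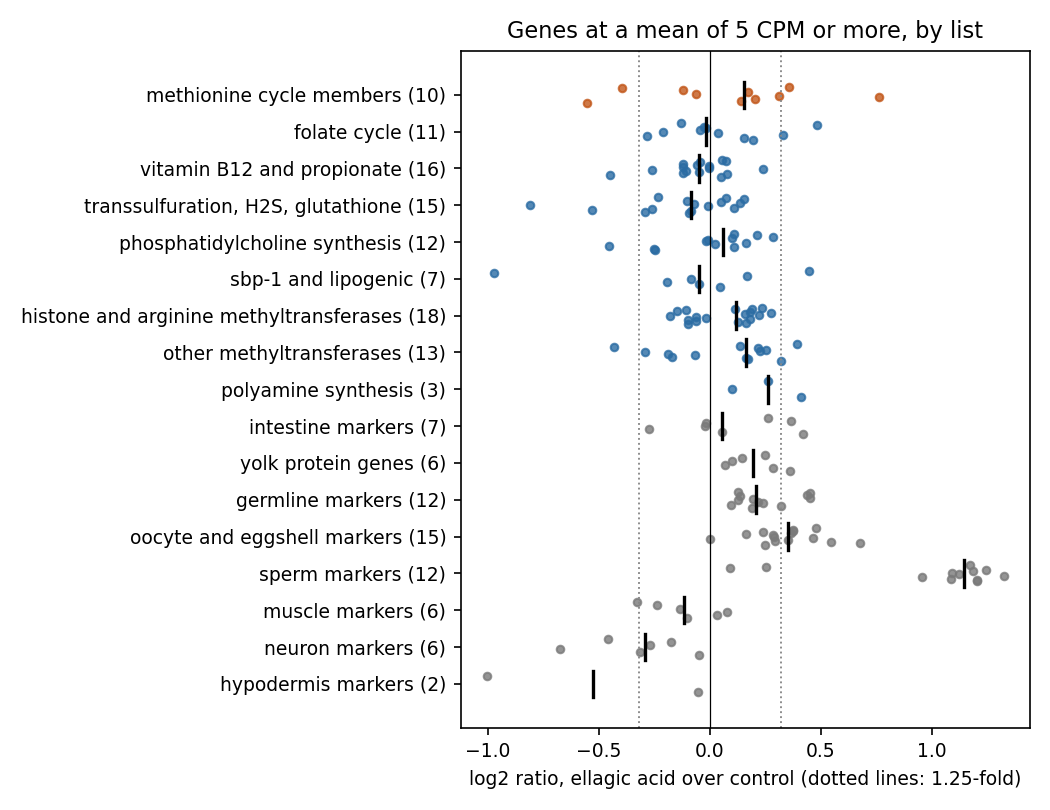
Log2 ratio of EA to control for each gene at 5 CPM or more in the 10 members (orange), 8 pathway lists (blue) and 8 marker lists (grey), with the number of genes in brackets, the list median as a black line and the limit of 0.32 as dotted lines. The members spread from -0.55 to 0.76, and the sperm markers stand apart at a median of 1.15.

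SAM is spent on phosphatidylcholine, on chromatin and on small molecules. Of 12 tested genes of phosphatidylcholine synthesis, 1 was lower beyond the limit and 0 higher, with a median of 0.06. The methyltransferase genes pmt-1 and pmt-2, which use SAM to make phosphocholine, were lower by nearly the same ratio: pmt-1 had 442 and 371 CPM, and its log2 ratio was -0.25 (-0.28 to -0.22), and pmt-2 had 73.4 and 61.7 CPM, also -0.25 (-0.33 to -0.17). The choline kinase gene ckb-2, on the route that needs no methylation, had -0.45 (-0.57 to -0.34), and pcyt-2.2 had 0.28.

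SBP-1, the factor that responds to low phosphatidylcholine, and its lipogenic targets were higher or lower gene by gene. sbp-1 itself had 3737 and 3719 counts, a log2 ratio of 0.04 (-0.02 to 0.11). Of 7 genes on the list, fat-7 was higher beyond the limit, at 0.44, and its close paralog fat-6 was lower, at 279 and 142 CPM and -0.98. Both encode stearoyl-CoA desaturases and may share reads, so the single values are uncertain. The fatty acid synthase gene fasn-1 had -0.19 and the desaturase gene fat-5 had 0.17. The median was -0.05 from counts and 0.10 (0.095) from FPKM, so its sign is not settled.

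Methyltransferase genes differed little. None of 18 histone and arginine methyltransferase genes passed the limit in either direction, with a median of 0.12. The largest were mes-2, which methylates histone H3 in the germline, at 0.28, prmt-9 at 0.24, met-1 at 0.22 and prmt-5 at 0.19. Of 13 other methyltransferase genes, icmt-1 was higher at 0.39 (0.12 to 0.67) and pcm-1, a protein repair methyltransferase gene, lower at -0.43 (-0.57 to -0.30), with a median of 0.16. icmt-1 had 4.79 CPM in control and 6.29 with EA, so it reached the 5 CPM minimum only through the EA library. With FPKM pcm-1 had -0.17 and was within the limit, and comt-3 had -0.29 from counts. Polyamine synthesis draws on decarboxylated SAM: odc-1 had 0.41, spds-1 0.26 and smd-1, the SAM decarboxylase gene, 0.10.

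Marker genes of every tissue listed were present, with 0 markers at 0 counts in either library. Germline, oocyte, sperm and yolk lists had the higher medians. Of the 10610 tested genes, 5448 were above 0 and 5162 below. Beyond the limit, 3 germline, 8 oocyte and 10 sperm markers and 1 yolk protein gene were higher and 0 lower. Of all tested genes 9.83% were higher and 15.6% lower by that limit. Past 2-fold, 9 sperm markers were higher, against 0.481% of all tested genes. All 12 germline markers had ratios above 0, with a summed level of 1707 CPM in control and 2085 CPM with EA and a median log2 ratio of 0.21. Of 15 oocyte and eggshell markers 14 were above 0, with 5533 and 6824 CPM and a median of 0.35. All 12 tested sperm markers of 15 listed were above 0, with 112 and 191 CPM summed over the 15 and a median of 1.15. Part of this follows from the minimum: gsp-3, ssq-2, ssq-3 and spch-2 were under 5 CPM in control and passed only through the EA library. Among the sperm markers under the minimum, spe-9 had -0.33, spe-42 0.22 and spe-38 0.76.

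Neuron, muscle and hypodermis lists had medians below 0. Beyond the limit, 2 neuron markers, 1 muscle marker and 1 hypodermis marker were lower and 0 higher, against 15.6% and 9.83% of all tested genes. All 6 neuron markers were below 0, with 793 and 682 CPM and a median of -0.29, and 4 of 6 muscle markers were below 0, with 1473 and 1416 CPM and a median of -0.12 (-0.03 with the length trend removed). Both tested hypodermis markers of 4 listed were below 0, with 504 and 482 CPM summed over the 4. They were nlp-29 at -1.01 and col-19 at -0.05, or 0.01 with FPKM. nlp-29 had 8.42 CPM in control and 4.18 with EA, so it reached the minimum only through the control library. Under the minimum, dpy-7 had 10 and 26 counts, a log2 ratio of 1.39 (0.33 to 2.65). rol-6, also under it, had -0.20 (-1.30 to 0.86). Intestine markers had 4 of 7 above 0, with 813 and 878 CPM and a median of 0.06. Beyond the limit elt-2 and pept-1 among them were higher and 0 lower, against 9.83% and 15.6% of all tested genes. Below 0 were ges-1, at -0.27 (-0.41 to -0.14), and ifb-2 and act-5, each at -0.02. All 6 yolk protein genes were above 0, with 21839 and 25704 CPM and a median of 0.20. The part of tissue proportions in the ratios of the members was not tested.

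The authors' deposited table called none of the 10 members changed by its own rule, an edgeR false discovery rate of 0.01 and 2-fold, by which it called 2.03% of 14692 genes up and 3.52% down. The lowest rates among the members in the authors' deposited table were 0.0210 for sams-5, at a log2 fold change of 0.76, and 0.0562 for sams-1, at -0.56. The authors' deposited table gives 0.236 for cbs-1, 0.318 for cth-2 and 0.414 for ahcy-1. How edgeR was given a spread from 1 library per group is not stated in the sources used here, so these rates were not used as a test.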

How the data were processed

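The members and gene lists were chosen with earlier results of these data known. The authors deposited raw counts per gene, FPKM and an edgeR comparison (log2 fold change and false discovery rate) for the same 2 libraries. Per the labels' protocols, libraries used the NEBNext Ultra kit on 1 µg of total RNA, and the reference was WBcel235. For the aligner, the counter and strand use: not given in the sources used here. Per the submitters' processing notes edgeR was used, with no version stated. Libraries were scaled with edgeR 4.0.16 (R 4.3.3) by TMM, the trimmed mean of M values, with factors of 0.988 for control and 1.01 for EA. The log2 ratio adds 0.5 to each count, and its interval is the exact conditional binomial 95% interval (scipy 1.17.1). The minimum of 5 CPM equals 207 counts in control and 199.5 in EA. Lengths, strands and positions came from Ensembl release 115 of WBcel235, which matched 10 of 10 members and gave a length for 19973 of 21163 rows; the gene names come from the deposited table. Ratios of FPKM add 0.01 to each value. The length trend was a lowess curve (span 0.3) of log2 ratio on log2 transcript length over 10426 tested genes. The interval between count ratios of a pair of genes uses a normal approximation on the log scale. Alternatives were other library scalings (DESeq2 1.42.0 among them), FPKM, other added counts, other minimums, removal of the length trend and omission of 1179 gene models that the authors added. Size rules stand in for tests, and the steps were tested on simulated data. Text names all members, the 4 genes of each pathway list whose log2 ratio was farthest from 0 among those above the minimum, and 9 neighbours of the cycle whatever their value. A planned motif search in promoters was not run, since no sequence was used here.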

Additional observations from a re-analysis of the deposited data

How the results depend on the processing

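No paired analysis was possible because each group has 1 library, and for the same reason no library could be left out. The count of members past 2-fold was 0 in each direction under all 11 alternatives run. Each member kept its direction under each alternative, except metr-1, which turned to 0.003 with FPKM. Beyond the log2 limit of 0.32, 1 member was higher and 2 lower at a minimum mean of 10 CPM, which removes sams-5. Of the 8970 genes at that minimum 8.34% were higher and 12.8% lower. At 50 CPM, an alternative chosen after seeing the data, 1 member was higher and 1 lower, against 6.06% and 7.77%. With limits also chosen after seeing the data, 6 members were higher at 1.1-fold, and 1 was higher and 0 were lower at 1.5-fold. ahcy-1 joined the higher members with total counts and with FPKM, settings in which 12.2% and 14.8% of all genes were higher. The summed SAM synthase genes turned from -0.04 to 0.03 (0.0326) with FPKM. In the pathway lists 5 genes were higher and 6 lower in the main setting. With FPKM 9 were higher and 5 lower, against 14.8% and 12.5% of all genes. At a minimum of 1 CPM 8 were higher and 8 lower, against 12.9% and 19.2% of all genes. The median of the sbp-1 and lipogenic list reversed to 0.095 with FPKM. The cause was not tested. FPKM moved the median of all genes from 0.01 to 0.07, and the higher share of all calls at that limit from 38.6% to 54.3%. For 2-fold calls the higher share was 24.1%, and 34.3% with FPKM or 41.2% with the length trend removed. Depth limits sams-5 most, whose log2 interval runs from 0.50 to 1.03, and a single library per group limits every value.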

Other observations

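A gene model that the authors added, newGene_112, has sams-3 as its best match in the deposited annotation and the KEGG ortholog of SAM synthase. It had 38 counts in control and 63 with EA, a log2 ratio of 0.77 (0.18 to 1.40), under the 5 CPM minimum. Its position was not used here, and whether it shares reads with the other SAM synthase genes was not tested.

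In the authors' KEGG group of folate one-carbon metabolism, chosen after its values were seen, F38B6.4 had 308 counts in control and 520 with EA, a log2 ratio of 0.81 (0.60 to 1.01), the highest of the 10 tested genes of that group outside the members. The gene cbl-1, which has the same KEGG ortholog as cth-1 and cth-2, had 1008 and 880 counts, a log2 ratio of -0.15 (-0.28 to -0.01). Among sulfur list genes below 5 CPM, mpst-4, mpst-5 and mpst-6 had 71, 24 and 37 counts in control and 173, 106 and 103 with EA.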
